A study of Mus musculus with 19 samples.

Results

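The 37 genes described here mark brain endothelial cells or build the blood-brain barrier, and their messenger RNA was counted in bulk tissue of the mouse medial prefrontal cortex across 4 treatment groups of wild-type animals. The genes were picked by name from the 57010 genes of the deposited count table, and all 37 were among the 17757 genes that passed the filter on low counts. They and the other gene lists below were chosen with earlier results of these data known. Shares set beside those of all genes are therefore descriptive. Every mouse was gavaged over 8 days and injected into the peritoneum over 5 days. Control libraries (n = 4, numbered 1, 2, 4 and 5 in the labels) came from mice given saline by both routes. The LPS group (n = 5) had saline by gavage and 1 mg/kg of LPS per injection, LPS being the lipopolysaccharide of the bacterial outer membrane that is used to set off systemic inflammation. The sedanolide group (n = 5) had 20 mg/kg of sedanolide, a phthalide of celery oil, by gavage and saline by injection. The co-treated group (n = 5) had both agents, the gavage beginning 3 days ahead of the LPS. Strain, age and sex are not given in the sources used here. Whether replicates are different animals is not stated in the labels; p-values reflect only how far these samples spread, and that spread may be technical.

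Brain endothelial cells line the vessels of the brain and form the blood-brain barrier: tight junctions seal the gaps between them, transport by vesicles across them is kept low, and carriers and efflux pumps choose what crosses. Transcription factors of the ETS and SoxF families keep the cells endothelial, and Wnt and beta-catenin signals from the surrounding tissue give them their barrier features. The cells face the blood and respond directly to LPS and to circulating cytokines, which is known to change their junctions, transporters and adhesion molecules.

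Endothelium is a small part of cortical tissue, and in bulk libraries fewer cells of a type and less RNA per cell cannot be told apart. The defining endothelial genes Cldn5, Pecam1, Cdh5, Tie1, Kdr and Flt1 were detected in all 19 libraries. No member had 0 counts in any library, the lowest being 64 reads of Foxq1 in control replicate 4 and the highest 4845 reads of Slc7a5 in LPS replicate 1. Library totals ranged from 19.08 to 24.32 M counts (M = mega), and levels below are CPM, counts per M of the scaled library total. Libraries stood apart in another way: Cdhr1, a gene of olfactory bulb neurons, was at 57.7 to 445 CPM in 7 of them, here named bulb-rich (control 1 and 5, LPS 2, 3 and 4, sedanolide 3 and 4). The remaining 12, named bulb-poor, had 2.29 to 9.92 CPM and included all 5 co-treated libraries. Control replicate 2 had the highest level among controls for 33 of the 37 members, and control replicate 4 the lowest for 22.

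Across the 4 groups the members formed 3 levels, highest after LPS, intermediate in co-treated libraries and lowest in control and sedanolide libraries. The mean over the 37 genes of the log2 level, relative to the mean of the controls, was -0.21 to 0.38 in the 4 control libraries. It was 0.75 to 1.06 in the 5 LPS libraries, -0.0011 to 0.23 in the 5 sedanolide libraries and 0.38 to 0.63 in the 5 co-treated libraries. LPS libraries overlapped with no other group on this scale. The lowest co-treated library (replicate 5, 0.3835) lay just above the highest control (replicate 2, 0.3809). The summed level of the 37 genes was 1386 to 1922 CPM in controls, 2488 to 2877 CPM after LPS, 1472 to 1742 CPM after sedanolide and 1858 to 2296 CPM after both agents. A member's coefficient of variation had a median of 23.9% among controls (11.8% without replicate 2), and of 12.8% after LPS, 11.9% after sedanolide and 10.7% after both agents.

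**Figure D1:**
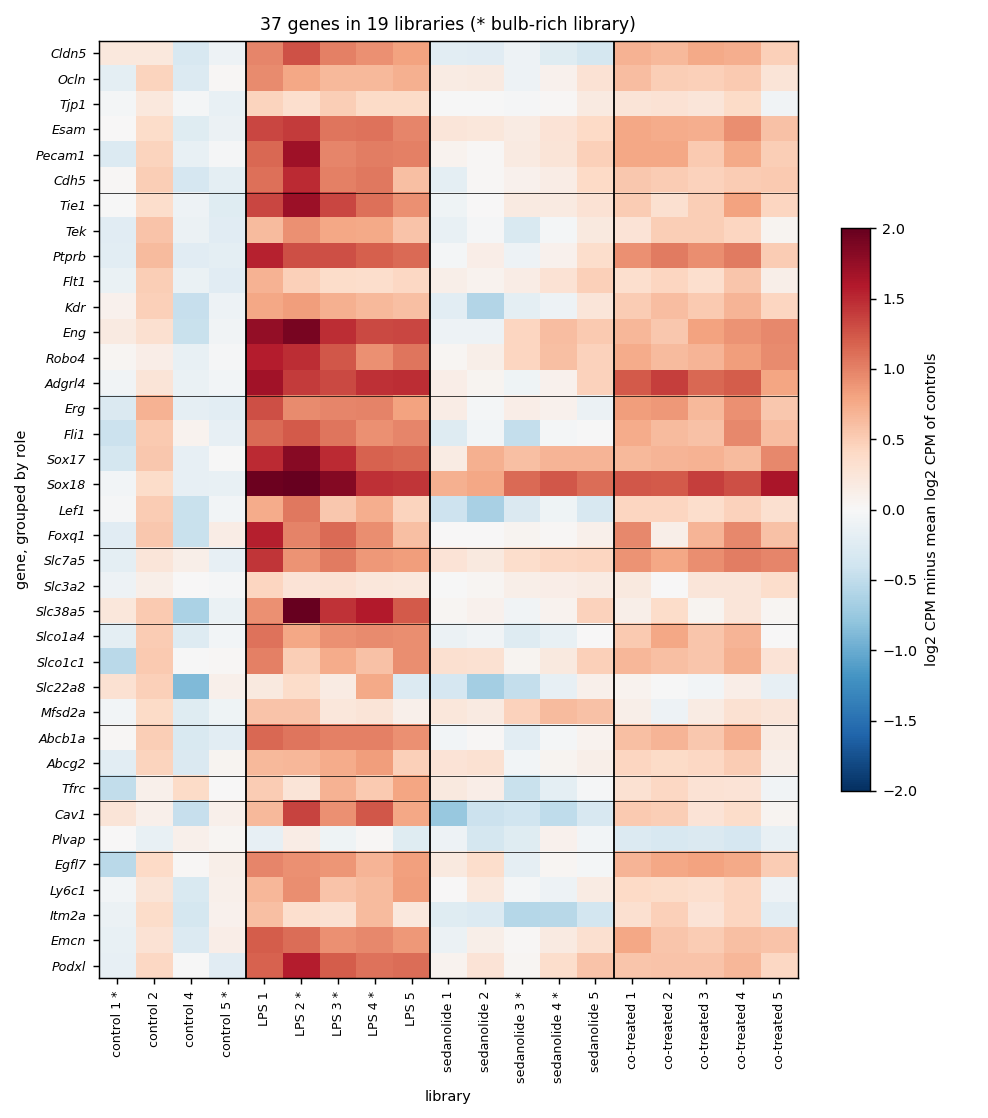
Level of the 37 genes (rows, grouped by role) in the 19 libraries (columns, grouped by treatment, bulb-rich libraries starred), as log2 CPM minus the mean log2 CPM of the 4 controls. The LPS columns are the darkest red (library means 0.75 to 1.06), co-treated columns are paler (0.38 to 0.63), and control replicate 2 is the reddest control column.

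Promoters of 26 of the 37 members were found in the RefSeq table (build GRCm38.p6), as 39 windows from 250 bases before to 50 bases after a transcription start. Of these 39 windows, 79.5% held GGAAG on either strand, the letters that ETS factors such as Erg and Fli1 recognise, against 71.4% of all 32851 windows. ACAAT on either strand, which Sox factors recognise, was in 20.5% of member windows and 31.0% of all windows. CTTTGA on either strand, which Lef1 and its relatives recognise, was in 6 of the 39 and in 5257 of the 32851. Matches of different motifs can share end bases, and a match is a description, not a binding site. The 250 bases before the start are printed for 4 members on which the results below turn, with GGAAG and CTTCC in capitals: Cldn5 as the junction gene that defines this endothelium, Tie1 and Eng as receptors that rose after LPS and fell in co-treated against LPS libraries, and Slc38a5 as the member with the largest fall in co-treated libraries. Tie1 held 6 matches and Eng 2, and none of the 3 motifs was in the 250 bases shown of Cldn5 or Slc38a5.
Cldn5, chr16:18776597-18776846, plus strand: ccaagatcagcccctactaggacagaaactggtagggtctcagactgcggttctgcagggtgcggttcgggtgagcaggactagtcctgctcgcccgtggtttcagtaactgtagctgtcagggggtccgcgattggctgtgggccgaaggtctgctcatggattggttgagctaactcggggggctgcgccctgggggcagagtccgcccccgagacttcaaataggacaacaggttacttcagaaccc
Tie1, chr4:118489850-118490099, minus strand: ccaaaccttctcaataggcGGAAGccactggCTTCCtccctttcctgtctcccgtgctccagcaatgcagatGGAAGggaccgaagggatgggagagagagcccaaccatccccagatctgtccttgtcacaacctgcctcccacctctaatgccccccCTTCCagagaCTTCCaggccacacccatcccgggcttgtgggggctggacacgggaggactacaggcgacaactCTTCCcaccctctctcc
Eng, chr2:32646345-32646594, plus strand: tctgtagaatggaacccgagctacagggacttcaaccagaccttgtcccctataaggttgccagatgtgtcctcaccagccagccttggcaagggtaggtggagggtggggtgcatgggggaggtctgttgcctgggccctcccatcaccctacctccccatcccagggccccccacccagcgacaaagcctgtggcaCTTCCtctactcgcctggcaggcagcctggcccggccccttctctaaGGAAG
Slc38a5, chrX:8271131-8271380, plus strand: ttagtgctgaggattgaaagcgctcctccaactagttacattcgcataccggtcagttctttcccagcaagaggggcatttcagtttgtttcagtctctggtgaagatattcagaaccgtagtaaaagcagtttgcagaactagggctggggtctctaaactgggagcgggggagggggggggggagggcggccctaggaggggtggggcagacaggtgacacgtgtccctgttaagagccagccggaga

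LPS libraries were first compared with controls, to see how repeated LPS alone changed these genes in the cortex. Of the 37 members, 33 rose and none fell (edgeR quasi-likelihood test, Benjamini-Hochberg adjusted p below 0.05 over all 17757 genes). Over all genes tested 10.9% were called in this comparison, 8.47% higher and 2.44% lower. In 28 members every LPS library lay above every control library, which was the case for 7.93% of all genes. The median log2 fold change of the members was 0.99 and that of all genes -0.0034. Changes ranged from -0.06 for Plvap to 1.81 for Sox18, and the 4 members not called were Itm2a, Mfsd2a, Slc22a8 and Plvap.

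**Figure D2:**
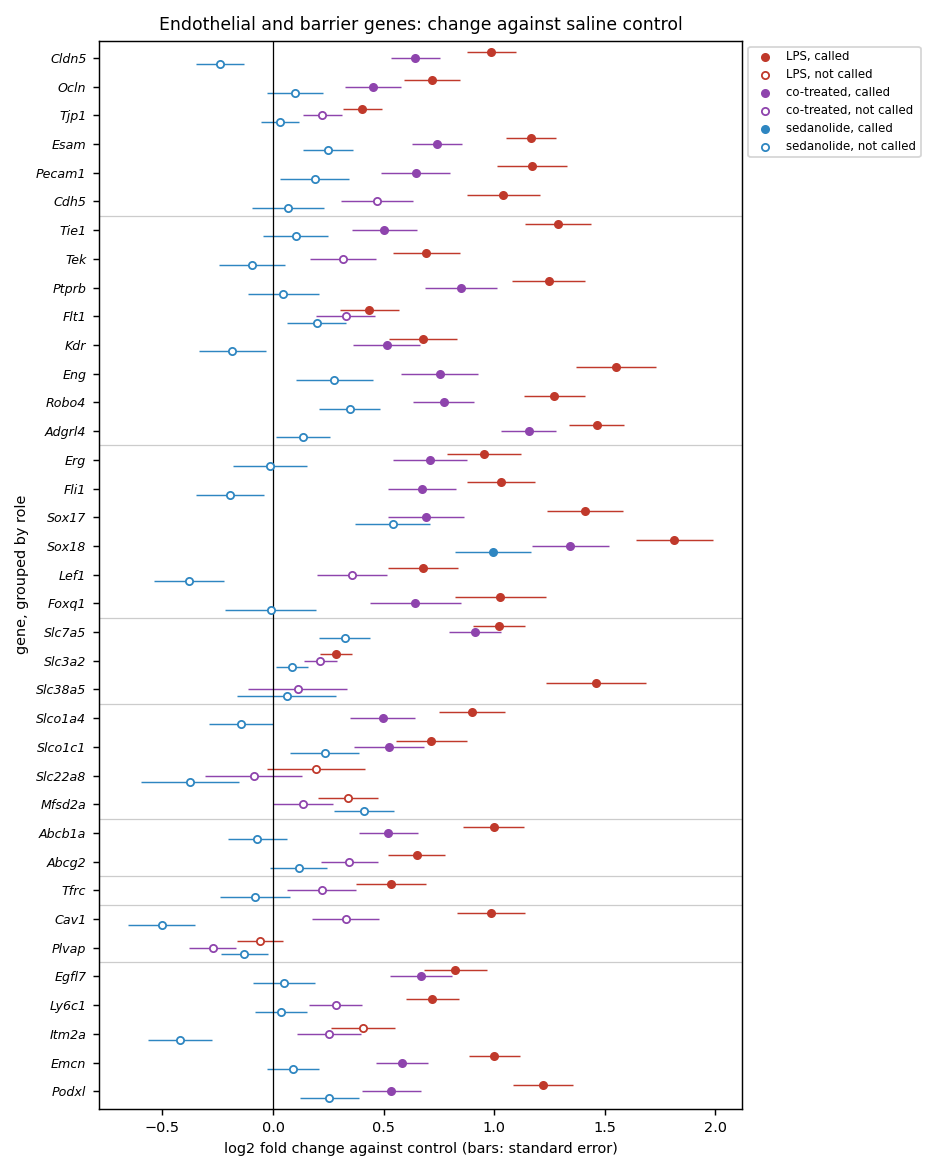
Log2 fold change of each of the 37 genes against saline control (points, with standard error bars) in LPS (red), co-treated (purple) and sedanolide (blue) libraries, filled where the adjusted p was below 0.05. Red points are filled for 33 genes, purple for 22 and blue for Sox18 alone.

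The 6 junction and adhesion genes all rose, from 1.32-fold for Tjp1 to 2.25-fold for Pecam1. Pecam1, the adhesion molecule CD31 of endothelial cell borders, was at 26.1, 43.0, 28.7 and 31.3 CPM in controls and at 69.9, 103, 62.3, 64.6 and 63.5 CPM in LPS libraries. The groups did not overlap, and LPS replicate 2 was the highest library. The log2 fold change was 1.17 (SE 0.16, edgeR adjusted p = 2.77e-05). Esam, a junctional adhesion molecule of endothelium and platelets, was at 17.4, 22.3, 14.7 and 15.9 CPM in controls and at 43.7, 45.7, 36.6, 36.9 and 34.1 CPM after LPS, again without overlap (1.17, SE 0.11, adjusted p = 6.02e-07). Tjp1, the scaffold protein ZO-1, which many cell types express, changed least in this group. It was at 117, 139.6, 117 and 109 CPM in controls and at 164, 153, 169, 157 and 156 CPM in LPS libraries, a small rise without overlap (0.40, SE 0.09, adjusted p = 0.00401). Cldn5, the main sealing claudin of brain vessels, was 1.98-fold higher (55.4 to 80.3 CPM in controls, 120.4 to 168 CPM after LPS). Cdh5, the VE-cadherin of adherens junctions, was 2.06-fold and Ocln, the junction protein occludin, 1.65-fold higher.

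All 8 receptors and receptor partners rose. Eng, endoglin, a co-receptor for TGF-beta and BMP ligands, was at 38.8, 42.6, 25.2 and 32.7 CPM in controls and at 115, 128, 94.6, 85.5 and 86.2 CPM in LPS libraries. Every LPS library had at least 85.5 CPM and no control more than 42.6 CPM, and the rise was 2.93-fold (log2 1.55, SE 0.18, adjusted p = 5.18e-06). Adgrl4, an adhesion receptor of endothelium, was at 30.8, 39.0, 29.6 and 31.4 CPM in controls and at 104, 85.4, 81.5, 89.7 and 90.2 CPM after LPS, 2.76-fold higher with the smallest adjusted p of the members (1.24e-07). Tie1, the partner of the angiopoietin receptor, was at 16.7, 21.5, 15.8 and 14.3 CPM in controls and at 42.7, 55.0, 42.6, 36.4 and 31.7 CPM after LPS (1.29, SE 0.15, adjusted p = 4.43e-06). Tek, the angiopoietin receptor Tie2 itself, rose 1.62-fold, and Ptprb, the phosphatase that removes phosphate from it, 2.37-fold. Robo4, which stabilises endothelium, was at 8.20, 8.72, 7.22 and 7.89 CPM in controls and rose 2.42-fold, without overlap. Of the VEGF receptors, Kdr rose 1.60-fold and Flt1 1.35-fold. Flt1, which binds VEGF with little signalling of its own, was at 88.1, 136, 87.4 and 82.5 CPM in controls and at 156, 135, 124, 123 and 128 CPM after LPS. Control replicate 2 lay among the LPS libraries, so the groups overlapped (0.43, SE 0.13, adjusted p = 0.0409). The Flt1 call held in 10 of 19 fits that left out 1 library and was lost without control 1, 4 or 5, LPS 1, 2 or 3, sedanolide 4 or co-treated 1 or 3, with adjusted p of 0.0527 to 0.169.

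All 6 transcription factor genes rose, and the SoxF genes rose most. Sox18 was at 7.50, 10.1, 6.98 and 7.10 CPM in controls and at 30.3, 38.3, 27.9, 21.5 and 21.1 CPM in LPS libraries. The lowest LPS library was more than 2-fold above the highest control, and the 3.52-fold rise was the largest among the members (log2 1.81, SE 0.18, adjusted p = 5.32e-07). Sox17, a SoxF factor of arterial and barrier endothelium, was at 4.99, 9.23, 5.65 and 6.31 CPM in controls and at 17.95, 22.4, 17.8, 14.4 and 14.1 CPM after LPS (1.41, SE 0.17, adjusted p = 8.63e-06). The ETS factors Erg and Fli1 rose 1.93-fold and 2.04-fold, and Foxq1, a forkhead factor enriched in brain endothelium, 2.04-fold. Lef1, the DNA-binding partner of beta-catenin, was at 6.35, 9.23, 4.77 and 6.22 CPM in controls and at 10.8, 13.4, 9.42, 10.7 and 8.79 CPM after LPS. Control replicate 2 again lay within the LPS range, and the change was the smallest of this group (0.68, SE 0.16, adjusted p = 0.00692).

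The 3 genes of amino acid carriers rose by unequal amounts. Slc38a5, a glutamine carrier of the barrier, was at 5.76, 7.09, 3.19 and 4.51 CPM in controls and at 9.26, 22.01, 13.4, 14.7 and 11.5 CPM after LPS. The groups did not overlap, although LPS replicate 2 was more than 2-fold above LPS replicate 1 (1.46, SE 0.23, adjusted p = 0.000132). Slc7a5, the LAT1 carrier of large neutral amino acids, was at 74.2, 99.9, 91.3 and 75.6 CPM in controls and at 228, 157, 175, 154 and 150.2 CPM after LPS (1.02, SE 0.12, adjusted p = 4.51e-06). Slc3a2, the heavy chain with which LAT1 pairs and which many cell types express, was at 120.0, 139, 129 and 126 CPM in controls and at 172, 156, 156, 150.4 and 149 CPM after LPS. Its LPS libraries lay above all controls by a small margin (0.28, SE 0.07, adjusted p = 0.0148), and the call was lost without control replicate 5 (adjusted p = 0.0514).

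Among carriers of organic anions and lipids, 2 of 4 rose. Slco1a4, an organic anion transporter of brain capillaries, was at 63.9, 105, 61.5 and 70.6 CPM in controls and at 156, 126, 139, 141 and 139 CPM after LPS, without overlap (0.90, SE 0.15, adjusted p = 0.000262). Slco1c1, a thyroid hormone transporter that astrocytes also express, was at 62.4, 129.7, 89.7 and 92.2 CPM in controls and at 181, 127, 151, 136 and 172 CPM after LPS, with control replicate 2 above LPS replicate 2 (0.72, SE 0.16, adjusted p = 0.00457). Slc22a8, the organic anion carrier OAT3, was not called (0.19, 95% interval -0.27 to 0.66). It was at 32.4, 36.5, 14.2 and 28.0 CPM in controls and at 30.0, 33.7, 29.5, 44.1 and 21.6 CPM after LPS, ranges that overlapped widely. Mfsd2a, which imports lysophospholipids and holds down vesicle transport, was at 21.5 to 33.3 CPM in controls and 27.3 to 38.0 CPM after LPS and was not called (0.34, 95% interval 0.05 to 0.62, adjusted p = 0.126). Without control replicate 2, Mfsd2a was called higher (adjusted p = 0.0193).

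The efflux pumps, the transferrin receptor and caveolin 1 rose. Abcb1a, P-glycoprotein, was at 42.8, 59.3, 33.9 and 36.3 CPM in controls and at 93.6, 87.9, 84.8, 84.6 and 79.0 CPM after LPS, without overlap (1.00, SE 0.14, adjusted p = 3.22e-05). Abcg2, the pump BCRP, was at 19.8, 31.4, 18.8 and 23.8 CPM in controls and at 35.9, 36.6, 38.2, 41.2 and 31.9 CPM after LPS (0.65, SE 0.13, adjusted p = 0.00176). The lowest LPS library of Abcg2 lay just above control replicate 2. Tfrc, which takes up iron-loaded transferrin and is also expressed by neurons, was at 86.6, 131, 159 and 123 CPM in controls and at 174, 147, 197, 176 and 211 CPM after LPS. Control replicate 4 lay within the LPS range, and the call (0.53, SE 0.16, adjusted p = 0.0344) was lost without control 1 or 5 or LPS 1, 3 or 5, with adjusted p of 0.0547 to 0.0955. Cav1, the coat protein of caveolae, was at 39.4, 35.4, 24.2 and 35.6 CPM in controls and at 51.8, 84.4, 62.4, 78.5 and 56.5 CPM after LPS (0.99, SE 0.15, adjusted p = 0.000145). Plvap, which builds the diaphragms of fenestrated vessels and is low in mature barrier endothelium, was at 7.28, 6.54, 7.76 and 7.39 CPM in controls and at 6.44, 8.01, 6.83, 7.36 and 6.11 CPM after LPS. These values overlapped fully, and the log2 change was -0.06 with a 95% interval of -0.28 to 0.16.

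Of the 5 remaining surface and secreted genes, 4 rose. Podxl, a sialomucin of the luminal surface, was at 42.7, 63.8, 47.5 and 40.8 CPM in controls and at 108, 142, 111, 101 and 104 CPM after LPS, without overlap and with LPS replicate 2 highest (1.22, SE 0.13, adjusted p = 2.86e-06). Emcn, the sialomucin endomucin, was at 8.02, 10.8, 7.32 and 9.73 CPM in controls and at 20.5, 19.1, 16.7, 17.2 and 16.2 CPM after LPS (1.00, SE 0.12, adjusted p = 5.28e-06). Itm2a, a membrane protein enriched in brain endothelium, was at 114, 160.2, 96.9 and 132 CPM in controls and at 188, 156, 153, 192 and 144 CPM after LPS, overlapping values that were not called (0.41, adjusted p = 0.0841). It was called higher without control replicate 2 (adjusted p = 0.018) or co-treated replicate 5 (0.0458). Egfl7, a secreted endothelial protein, rose 1.77-fold. Ly6c1, a surface protein of brain capillaries, rose 1.65-fold (0.72, SE 0.12), but its near-identical neighbour Ly6c2, a monocyte gene, makes it uncertain where reads were divided between them. Ly6c2 was at 0.0739 to 0.196 CPM in controls and at 0.403 to 0.658 CPM after LPS. The pumps and organic anion carriers also have close paralogs.

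**Figure D3:**
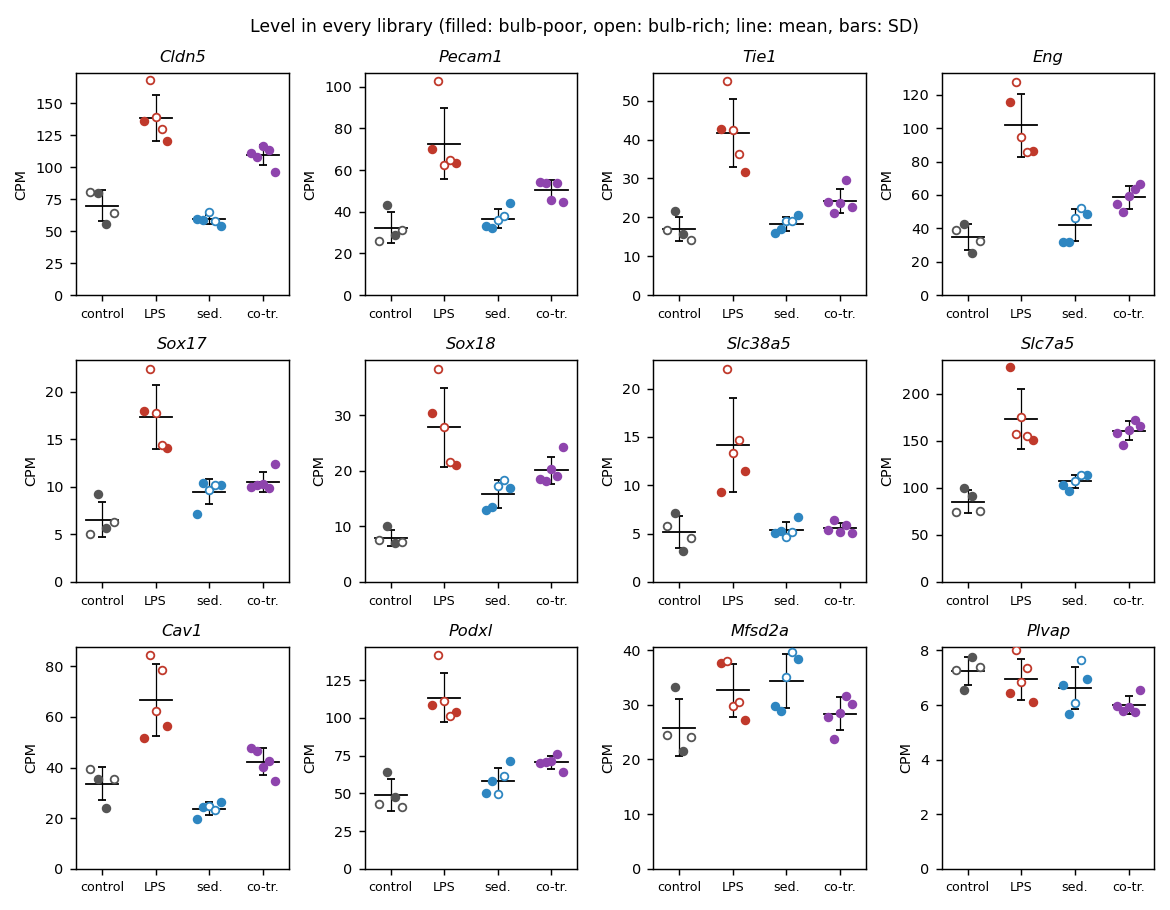
CPM of 12 of the genes in each library, by group (sed., sedanolide; co-tr., co-treated), with the mean as a line and the SD as bars; filled points are bulb-poor and open points bulb-rich libraries. Eng and Podxl show LPS libraries above all others, Sox18 shows LPS libraries (from 21.1 CPM) overlapping with co-treated ones (up to 24.2 CPM), Slc38a5 shows co-treated libraries at 5.09 to 6.38 CPM beside controls at 3.19 to 7.09 CPM, and Plvap shows overlapping groups.

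The bulb-poor libraries alone (2 control and 2 LPS) gave 19 members called, all higher. The 14 members whose call was lost there were Cdh5 (0.70, adjusted p = 0.128), Slc38a5 (0.98, 0.0613), Ocln (0.67, 0.054), Kdr (0.58, 0.269), Tjp1, Tek, Flt1, Erg, Lef1, Foxq1, Slc3a2, Slco1a4, Abcg2 and Tfrc, and the median of the 37 was 0.72. The bulb-rich libraries alone (2 control and 3 LPS) gave 29 called, all higher, with a median of 0.98. A fit of the control and LPS libraries alone called 28, without Flt1, Lef1, Slc3a2, Slco1c1 and Tfrc.

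Markers of other cells moved with this rise. Of 11 pericyte and smooth muscle genes tested, 5 rose after LPS, among them the pericyte channel genes Abcc9 (2.27-fold) and Kcnj8 (1.94-fold), the receptor gene Notch3 (2.01-fold) and Rgs5 (1.66-fold); the fifth was Atp13a5. The summed level of the list was 353.8 to 560.6 CPM in controls and 582.4 to 871.2 CPM after LPS. Its genes Acta2, Myh11 and Cnn1 had by far their most reads in LPS replicate 2. Of 9 microglial genes 5 rose, among them the receptor gene Csf1r (2.65-fold), and the list's sum went from 420.4 to 580.0 CPM in controls to 836.0 to 1027 CPM after LPS. Sall1 of this list had 3666 and 1650 reads in the bulb-rich controls and 556 and 389 in the bulb-poor controls. All 8 neutrophil genes tested rose, for example Cxcr2 (22.3-fold) and S100a9 (13.3-fold), from a sum of 7.52 to 12.3 CPM to one of 62.1 to 68.0 CPM. Of 9 monocyte and lymphocyte genes 8 rose, to a sum of 10.1 to 16.9 CPM from 2.25 to 2.80 CPM. None of 9 fibroblast, 7 choroid plexus, 3 platelet, 8 astrocyte, 9 neuron, 6 oligodendrocyte or 4 bulb genes was called. Of 6 erythroid genes Hba-a2 alone was called, lower (to 0.258 of control). In that list 5 changes were below 0 and 1 above (median -1.63). The list's sum was 192.8 to 289.5 CPM in controls and 2.59 to 181.2 CPM after LPS, without overlap. At an unadjusted p below 0.05, 35 members and 4306 of all genes differed, and the part of these other cells in the members' rise was not tested.

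Sedanolide without LPS was compared with saline to ask what it did alone. Of the members only Sox18 was called, higher, while 5.31% of all genes were called (3.2% higher, 2.11% lower). The median log2 change of the members was 0.06 and that of all genes -0.01. Sox18 was at 12.9, 13.4, 17.3, 18.4 and 16.9 CPM in sedanolide libraries, all above the highest control at 10.1 CPM. It was the 1 member whose libraries lay all above control, as 4.39% of all genes did, and no member lay all below, as 3.56% did. Its rise was 1.99-fold (log2 1.00, SE 0.17, adjusted p = 0.00585). It was called in all 19 fits that left out 1 library, but not in a fit of the control and sedanolide libraries alone (0.99, adjusted p = 0.0561) nor in bulb-poor (0.72, 0.191) or bulb-rich libraries alone (1.27, 0.0963).

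The other members lay closer to control after sedanolide. Sox17 was at 7.14, 10.4, 9.65, 10.2 and 10.2 CPM, of which 4 libraries lay above all controls and replicate 1 among them (0.54, SE 0.17, adjusted p = 0.0671). Cav1 was at 19.6, 24.5, 25.0, 23.2 and 26.5 CPM, mostly below the controls and overlapping with control replicate 4 (-0.50, SE 0.15, adjusted p = 0.0576). Mfsd2a was at 28.9 to 39.6 CPM (0.41, adjusted p = 0.078), and Itm2a at 104, 102, 83.5, 84.1 and 95.8 CPM (-0.42, adjusted p = 0.0887). Slc7a5 was at 103, 96.5, 108, 113 and 113 CPM (0.32, adjusted p = 0.0956). None of these 5 was called by edgeR. DESeq2 called 6 members, Sox18, Sox17, Slc7a5 and Mfsd2a higher and Cav1 and Itm2a lower. The junction gene Cldn5 was at 54.2 to 64.7 CPM beside 55.4 to 80.3 CPM in controls (-0.24, 95% interval -0.47 to -0.01, adjusted p = 0.177). Leaving out control replicate 2 gave 7 called members, adding Sox17, Mfsd2a, Esam, Flt1, Slc7a5 and Podxl, all higher. Calls numbered 3 without control 4, LPS 1 or LPS 2, and 2 without sedanolide 1 or co-treated 5. Of other cells' markers, the fibroblast genes Dcn and Lum and the astrocyte gene Gja1 were called lower and the neuron gene Rbfox3 higher, and their part was not tested.

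With sedanolide in both arms, co-treated libraries were compared with sedanolide libraries, which asks what LPS did in mice that also received sedanolide. This comparison shares no library with that of LPS and control. Of the 37 members, 15 rose and none fell, while 5.58% of all genes were called (5.09% higher). In 19 members every co-treated library lay above every sedanolide library, against 5.4% of all genes, and in none did all lie below, against 1.82%. The median log2 change was 0.43. Adgrl4 rose most, 2.03-fold, from 35.7, 33.8, 30.8, 34.6 and 44.8 CPM to 76.2, 85.2, 72.0, 75.1 and 55.9 CPM (log2 1.02, SE 0.11, adjusted p = 5.22e-06). The lowest co-treated library of Adgrl4, replicate 5, was still above all sedanolide libraries.

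The called genes came from most roles. Junction genes Cldn5 (1.85-fold) and Esam (1.41-fold) rose, as did Ptprb (1.75-fold) and Kdr (1.62-fold) among receptors. Fli1 (1.83-fold), Lef1 (1.67-fold) and Erg (1.65-fold) rose among transcription factors. Slc7a5 (1.503-fold), Slco1a4 (1.56-fold) and Abcb1a (1.51-fold) rose among carriers and pumps, and Cav1 (1.78-fold), Itm2a (1.59-fold), Egfl7 (1.54-fold) and Emcn (1.41-fold) among the rest. The values of Cav1 were 19.6, 24.5, 25.0, 23.2 and 26.5 CPM with sedanolide and 47.8, 46.4, 40.0, 42.7 and 34.5 CPM with both agents, without overlap. Itm2a, not called after LPS alone, was at 154, 171, 149.6, 167 and 107 CPM in co-treated libraries, all above the sedanolide libraries. Against control, the log2 changes of Itm2a were 0.41 after LPS, -0.42 with sedanolide and 0.25 with both agents, none of them called. Not called were Sox18 (0.35, adjusted p = 0.267), Sox17 (0.15, 0.722), Slc38a5 (0.05, 0.955), Eng (0.48, 0.116), Tie1 (0.40, 0.11) and Podxl (0.28, 0.258). Each of the 15 called genes was called in all 19 fits that left out 1 library, and bulb-poor libraries alone (3 sedanolide, 5 co-treated) gave 11 calls, all higher, with a median of 0.48.

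Markers of other cells were also higher in co-treated than in sedanolide libraries. Of 11 pericyte and smooth muscle genes 4 rose (Rgs5, Kcnj8, Abcc9 and Atp13a5), and the list's sum was 353.8 to 434.2 CPM with sedanolide and 431.5 to 579.9 CPM with both agents. Of 9 microglial genes 6 rose, with sums of 461.1 to 601.7 CPM and 793.0 to 1047 CPM. Of 8 neutrophil genes 6 rose, with sums of 5.58 to 12.1 CPM and 29.9 to 41.4 CPM, and of 9 monocyte and lymphocyte genes 6 rose, with sums of 0.845 to 1.33 CPM and 4.91 to 8.93 CPM. No gene of the fibroblast, choroid plexus, platelet, erythroid, astrocyte, neuron, oligodendrocyte or bulb lists was called. The bulb list had a sum of 4.30 to 328.4 CPM with sedanolide and of 3.04 to 8.02 CPM with both agents. The part of these cells in the members' rise was not tested.

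Co-treated libraries were compared with LPS libraries to ask what sedanolide did in mice given LPS. Of the 37 members, 9 fell and none rose, while 1.97% of all genes were called (1.68% lower, 0.287% higher). All 37 fitted changes were below 0, as were 9250 of the 17757 changes over all genes, and the median was -0.35 for the members and -0.01 for all genes. In 17 members every co-treated library lay below every LPS library, against 4.6% of all genes, and in none did all lie above, against 3.33%. The 9 genes were the glutamine carrier Slc38a5, the receptors Eng, Tie1 and Robo4, the factor Sox17, the surface genes Podxl and Ly6c1, Cav1 and the junction gene Esam.

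**Figure D4:**
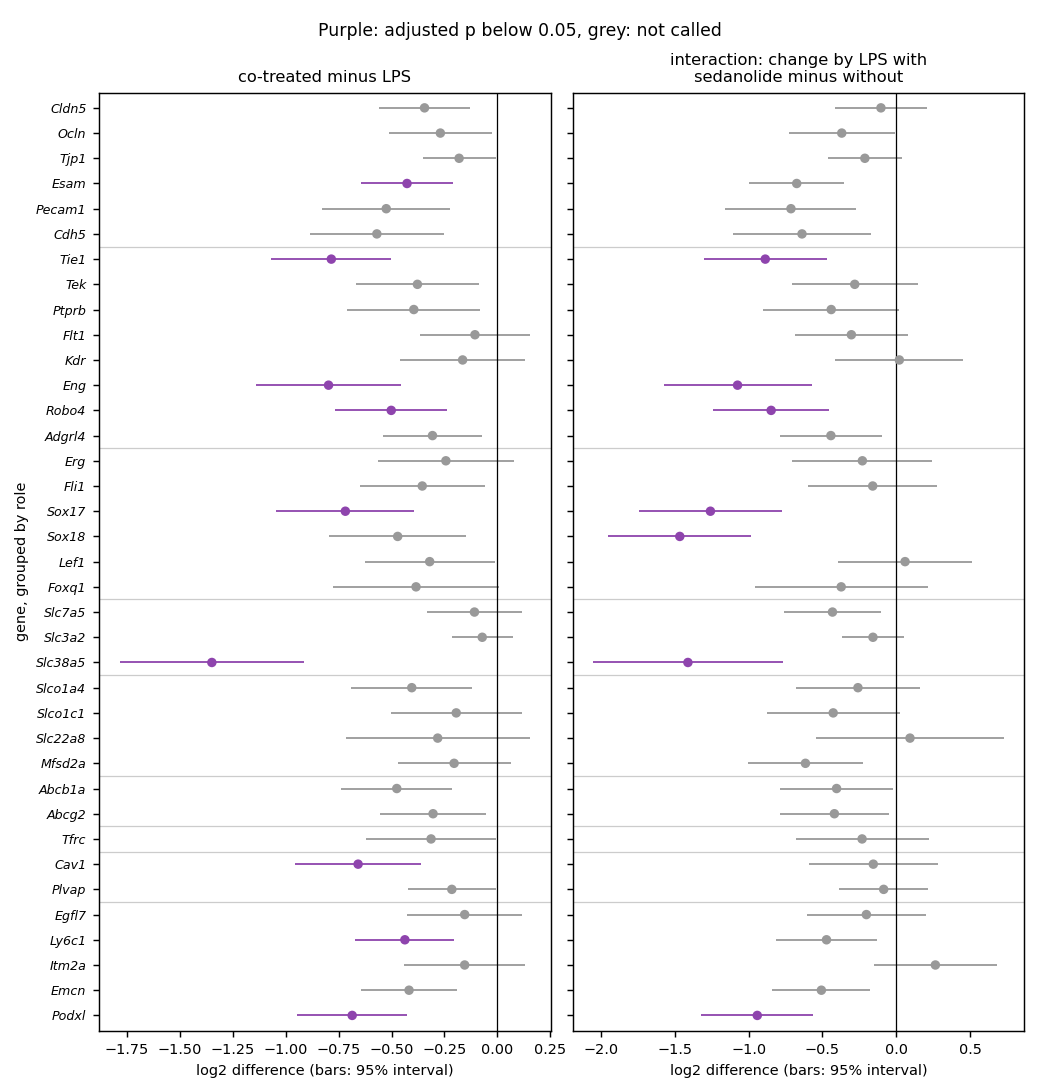
Left, log2 difference between co-treated and LPS libraries for each of the 37 genes with its 95% interval; right, the interaction, the change by LPS with sedanolide minus the change by LPS without it. All 37 points on the left lie below 0, 9 of them called (purple), and Slc38a5 lies farthest left at -1.35; on the right 7 genes are called, Sox18 lowest at -1.47.

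Slc38a5 fell most. It was at 5.36, 6.38, 5.13, 5.84 and 5.09 CPM in co-treated libraries, and the highest of these was below the lowest LPS library at 9.26 CPM. Its level fell to 0.392 of the LPS level (log2 -1.35, SE 0.21, adjusted p = 0.00227). Tie1 was at 24.0, 21.0, 23.7, 29.5 and 22.8 CPM in co-treated libraries, all below the lowest LPS library at 31.7 CPM (-0.78, SE 0.14, adjusted p = 0.00482). Podxl was at 70.1, 70.8, 71.2, 76.2 and 64.1 CPM, all below the LPS range of 101.5 to 142 CPM (-0.69, SE 0.12, adjusted p = 0.00639). These 3 genes were called in all 19 fits that left out 1 library.

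The other 6 called genes also lay below the LPS libraries, with 1 overlap. Eng was at 54.3, 49.6, 59.3, 63.4 and 66.6 CPM in co-treated libraries and at no less than 85.5 CPM in LPS libraries (-0.80, SE 0.16, adjusted p = 0.0152). Cav1, whose co-treated values are given above, had its lowest LPS library at 51.8 CPM, over the highest co-treated one at 47.8 CPM (-0.66, SE 0.14, adjusted p = 0.0203). Sox17 was at 9.99, 10.2, 10.3, 9.86 and 12.4 CPM, all below the lowest LPS library at 14.1 CPM (-0.72, SE 0.16, adjusted p = 0.0208). Robo4 was at 13.4, 12.5, 12.8, 14.3 and 15.3 CPM and overlapped with its LPS values of 23.7, 22.3, 18.9, 15.0 and 16.8 CPM (-0.50, SE 0.13, adjusted p = 0.0457). Esam was at 29.7, 29.0, 28.7, 33.0 and 26.1 CPM (-0.43, adjusted p = 0.039) and Ly6c1 at 43.2 to 61.9 CPM (-0.44, adjusted p = 0.0491), both without overlap with LPS. Each of these 6 calls was lost without LPS replicate 2, the adjusted p then running from 0.0525 for Eng to 0.166 for Ly6c1, so that 3 members were called. The members called numbered 4 without co-treated replicate 1 or 3, and 5 without co-treated replicate 2 or 5. Ly6c1 was called in 4 of the 19 fits that left out 1 library, Robo4 in 9, Esam in 10, Sox17 in 14, Cav1 in 15 and Eng in 17.

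Members that were not called included most carriers and all pumps. Emcn (-0.42, adjusted p = 0.0508), Abcb1a (-0.48, 0.0561), Cdh5 (-0.57, 0.0577), Pecam1 (-0.52, 0.065) and Cldn5 (-0.34, 0.0853) lay below LPS in every co-treated library, and DESeq2, which called 14 members, called these 5 as well. Slc7a5 was at 158, 145, 161, 172 and 166 CPM in co-treated libraries, 4 of them within its LPS range, and its difference was -0.11 (95% interval -0.33 to 0.12). Slc3a2 (-0.07, -0.22 to 0.07), Flt1 (-0.11, -0.37 to 0.16) and Kdr (-0.16, -0.46 to 0.13) had intervals that also include 0. At an unadjusted p below 0.05, 26 members and 3508 of all genes differed.

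Olfactory bulb content differed between these groups, with Cdhr1 at 57.7 to 181 CPM in 3 of 5 LPS libraries and at 2.29 to 7.41 CPM in all 5 co-treated libraries. With the 2 bulb-poor LPS libraries against the 5 co-treated ones no member was called, and 35 of all genes were. The median log2 change of the members was -0.34, beside -0.35 with all libraries. In that fit Slc38a5 was at -0.88 (adjusted p = 0.17), Podxl at -0.58 (0.0882), Tie1 at -0.61 (0.158), Eng at -0.77 (0.19) and Sox17 at -0.59 (0.279). With the index of bulb genes as a covariate, 4 members were called. Of other cells' markers, 5 of 8 neutrophil genes fell in co-treated against LPS libraries, Retnlg (to 0.134 of the LPS level), S100a9, S100a8, Cxcr2 and Mmp8, and the list's sum was 29.9 to 41.4 CPM against 62.1 to 68.0 CPM. Csf3r, which was not called, had the most reads of this list in every co-treated library. It had 442 to 615 reads there and 366 to 707 in LPS libraries. Of 11 pericyte and smooth muscle genes Notch3 (-0.70) and Myh11 (-1.41) fell, and the sum was 431.5 to 579.9 CPM against 582.4 to 871.2 CPM. The fibroblast list had none of 9 genes called, with a median of -0.91, and a sum of 105.0 to 131.8 CPM against 116.6 to 273.1 CPM. Of 9 microglial genes none was called (median 0.01). The part of these other cells in the members' fall was not tested.

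The interaction asked whether the change by LPS differed between mice with and without sedanolide. It was below 0 and called for 7 of the 37 members, against 0.586% of all genes (0.372% lower). The median was -0.40 for the members and -0.02 for all genes. Sox18 differed most, at -1.47 (SE 0.23, adjusted p = 0.00571). Its co-treated libraries were at 18.5, 18.2, 20.4, 19.2 and 24.2 CPM, and its log2 change by LPS was 1.81 without sedanolide and 0.35 with it. Sedanolide alone had raised Sox18 by 1.00 against control. Its difference between co-treated and LPS libraries, -0.47, was not called (edgeR adjusted p = 0.117), and those libraries overlapped. Sox17 had 1.41 without and 0.15 with sedanolide (interaction -1.26, SE 0.23, adjusted p = 0.0162). For Sox17, sedanolide alone against control was at 0.54 (not called) and co-treated against LPS at -0.72 (called). Podxl had 1.22 and 0.28 (-0.94, adjusted p = 0.0246), and Slc38a5 1.46 and 0.05 (-1.41, 0.042). Sedanolide libraries of Podxl were at 50.5, 58.1, 49.4, 61.2 and 71.3 CPM and those of Slc38a5 at 5.03, 5.23, 4.67, 5.16 and 6.76 CPM, both overlapping with control.

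The receptors Robo4, Eng and Tie1 had interactions of -0.85 (adjusted p = 0.0454), -1.07 (0.0469) and -0.89 (0.0469). Sedanolide libraries of Eng were at 31.9, 31.8, 45.9, 52.3 and 48.8 CPM and those of Robo4 at 8.19, 8.66, 10.8, 12.2 and 11.1 CPM, so that 3 libraries of each lay above all controls, while Tie1 at 15.97, 17.0, 19.03, 19.1 and 20.6 CPM overlapped with control throughout. For Cldn5 the log2 change by LPS was 0.99 without and 0.88 with sedanolide, and its interaction was -0.10 (95% interval -0.41 to 0.21). Kdr (0.02, -0.41 to 0.46), Lef1 (0.06, -0.39 to 0.51) and Cav1 (-0.16, -0.59 to 0.28) were likewise not called. Sox18 alone was called in all 19 fits that left out 1 library. Without control replicate 5 it was the only call. Calls numbered 2 without control 4, sedanolide 4 or 5 or co-treated 1, 2 or 3. They numbered 3 without LPS 2 or 3 or sedanolide 3, 4 without LPS 1 or co-treated 4, and 12 without control 2. No interaction of a member was called in bulb-poor libraries, where 20 of all genes were called. There the median of the members was -0.30 and Sox18 was at -1.06 (edgeR adjusted p = 0.283).

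Co-treated libraries were set against control to ask what remained raised in mice given both agents. Of the 37 members, 22 were higher and none lower, while 11.1% of all genes were called (6.38% higher, 4.69% lower). In 13 members every co-treated library lay above every control, against 7.91% of all genes, in none did all lie below (4.93%), and the median log2 change was 0.51. This comparison shares the controls with that of LPS and the co-treated libraries with that above, so its values are given beside them. Sox18 (2.54-fold over control, 3.52-fold after LPS) and Adgrl4 (2.23-fold and 2.76-fold) were the highest. Slc7a5 was 1.88-fold over control with both agents and 2.03-fold after LPS.

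Other genes were nearer to control. Slc38a5 was at 5.56 CPM ± 0.548 (SD, n = 5) in co-treated and 5.14 CPM ± 1.67 (SD, n = 4) in control libraries, with a log2 change of 0.11 (95% interval -0.36 to 0.58). Cav1 (0.33, adjusted p = 0.162), Ly6c1 (0.28, 0.126) and Tek (0.32, 0.17) were not called. Tie1 (1.42-fold, adjusted p = 0.0331), Podxl (1.45-fold, 0.0154) and Eng (1.69-fold, 0.0107) were above control. Plvap was at 5.96, 5.76, 5.93, 5.75 and 6.55 CPM in co-treated libraries, the lowest group mean (-0.27, adjusted p = 0.096), and was called lower in 1 alternative, with length and GC corrected (adjusted p = 0.0474). The count of members moved with the controls left out: it was 12 without control replicate 1 or 5, 30 without control replicate 2, and 6 in bulb-poor libraries alone. Those 6 were Cldn5, Esam, Robo4, Adgrl4, Sox18 and Slc7a5.

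Other markers differed between co-treated and control libraries as well. All 4 bulb genes, Cdhr1, Eomes, Doc2g and Shisa3, were lower (median -6.54), with a sum of 7.66 to 719.2 CPM in controls and 3.04 to 8.02 CPM in co-treated libraries. Of 9 microglial genes 6 were higher, as were 4 of 11 pericyte and smooth muscle genes (Rgs5, Kcnj8, Abcc9 and Atp13a5). Of 8 neutrophil genes 4 were higher (S100a8, S100a9, Cxcr2 and Csf3r), and of 9 monocyte and lymphocyte genes 4 (Cd8a, Nkg7, Gzma and Ms4a1). Slc6a13 of the fibroblast list, Hba-a2 of the erythroid, Slc4a4 of the astrocyte and Gad2 of the neuron list were lower. Gad2 had 10701 and 6554 reads in the bulb-rich controls, 3332 and 3183 in the bulb-poor controls and 2849 to 3055 in co-treated libraries. For Slc4a4 these were 9085 and 5910, 3838 and 2984, and 2736 to 3441 reads. Both genes thus differed with bulb content among the controls themselves. The erythroid list's sum was 192.8 to 289.5 CPM in controls and 28.3 to 96.6 CPM in co-treated libraries. The part of these other cells in the members' difference was not tested.

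Other genes of the same pathways were taken from lists of genes that are no members. Whether calls in these pathway and zone lists held without LPS replicate 2, or in bulb-poor libraries alone, was not examined. Of 23 other pan-endothelial genes tested, 16 rose after LPS, none fell and the median was 0.77. Clec14a, a lectin of endothelial surfaces, rose 5.21-fold, Ecscr 4.22-fold, the receptor Cd93 2.23-fold and the adrenomedullin co-receptor Ramp2 1.98-fold. In co-treated against LPS libraries 6 of the 23 fell, among them Clec14a (to 0.401, adjusted p = 0.00132) and Cd93 (to 0.612, 0.00289). Of 25 other barrier transporters and receptors 10 rose after LPS, among them Slco2b1 (2.71-fold), the glucose carrier Slc2a1 (2.35-fold), the pump gene Abcc6 (3.46-fold) and the metal carrier Slc39a8 (1.80-fold). Of these 25, 5 fell in co-treated against LPS libraries, the taurine carrier Slc6a6 (to 0.684), Slc2a1 (to 0.663), Slc39a8, Abcc4 and the insulin receptor Insr.

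Junction and signalling lists were counted in the same way. Of 20 other junction and caveola genes, 8 rose after LPS, among them the junctional adhesion gene F11r (2.35-fold) and the caveola gene Ehd2 (2.56-fold), with Lsr (2.32-fold) and Cavin1 (1.79-fold). The list's median was 0.01, and 3 of the 20 fell in co-treated against LPS libraries, Ehd2 to 0.505, Ctnna1 to 0.784 and Cavin1 to 0.633. Of 21 genes listed under Wnt and beta-catenin signalling 7 rose after LPS (median 0.27). Among them were the Wnt target Apcdd1 (2.33-fold), Sox7 (2.56-fold), the receptor Fzd6 (1.62-fold) and Foxf2 (1.79-fold). Sox7 is a SoxF factor, as Sox17 and Sox18 are. Sox7 (-0.78) and Adgra2 (-0.90), a co-receptor for Wnt7, fell in co-treated libraries. Of 25 genes of VEGF, angiopoietin, TGF-beta and BMP signalling 9 rose after LPS (median 0.08), with the receptors Tgfbr2 (2.30-fold), Flt4 (2.79-fold) and Acvrl1 (1.92-fold) and the ligand Tgfb1 (2.45-fold), which microglia also make. The inhibitor Smad6 (-1.22) and Acvrl1 (-0.67) fell in co-treated against LPS libraries. Every gene named in this paragraph as falling had its most reads among LPS libraries in replicate 2. Examples were Smad6 (224 reads, other LPS libraries 83 to 141), Acvrl1 (1191, 571 to 809), Ehd2 (1251, 529 to 779) and Adgra2 (1565, 490 to 966).

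The lists of vessel zones differed in their counts. Of 10 genes of venous endothelium 8 rose after LPS (median 1.24) and 6 fell in co-treated against LPS libraries. Vwf, the von Willebrand factor, rose 5.91-fold after LPS and fell to 0.322 of that level with both agents (adjusted p = 0.000834). Lcn2 (38.5-fold), Icam1 (3.86-fold) and Il1r1 (2.59-fold) of this list respond to inflammation and are not restricted to veins. Of 12 arterial genes 4 rose, Edn1, the endothelin gene (2.03-fold), Notch4 (2.05-fold), Sema3g (1.71-fold) and Gja4 (1.60-fold), and 3 fell in co-treated libraries, Sema3g (-0.93), the Notch ligand gene Jag1 (-0.78) and Edn1 (-0.70). Of 7 capillary genes 3 rose, the lactate carrier Slc16a1 (2.29-fold), Itga1 (1.74-fold) and Hmcn1 (1.63-fold), and none was called in co-treated against LPS libraries (median -0.19). A difference between the zones was not tested. In sedanolide against control, 4 of the 25 VEGF, angiopoietin, TGF-beta and BMP genes were called (1 higher, 3 lower). So were 3 of the 23 other pan-endothelial genes (1 higher, 2 lower) and 1 of the 12 arterial genes (lower), beside 5.31% of all genes. No gene of the other pathway and zone lists was called there.

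**Figure D5:**
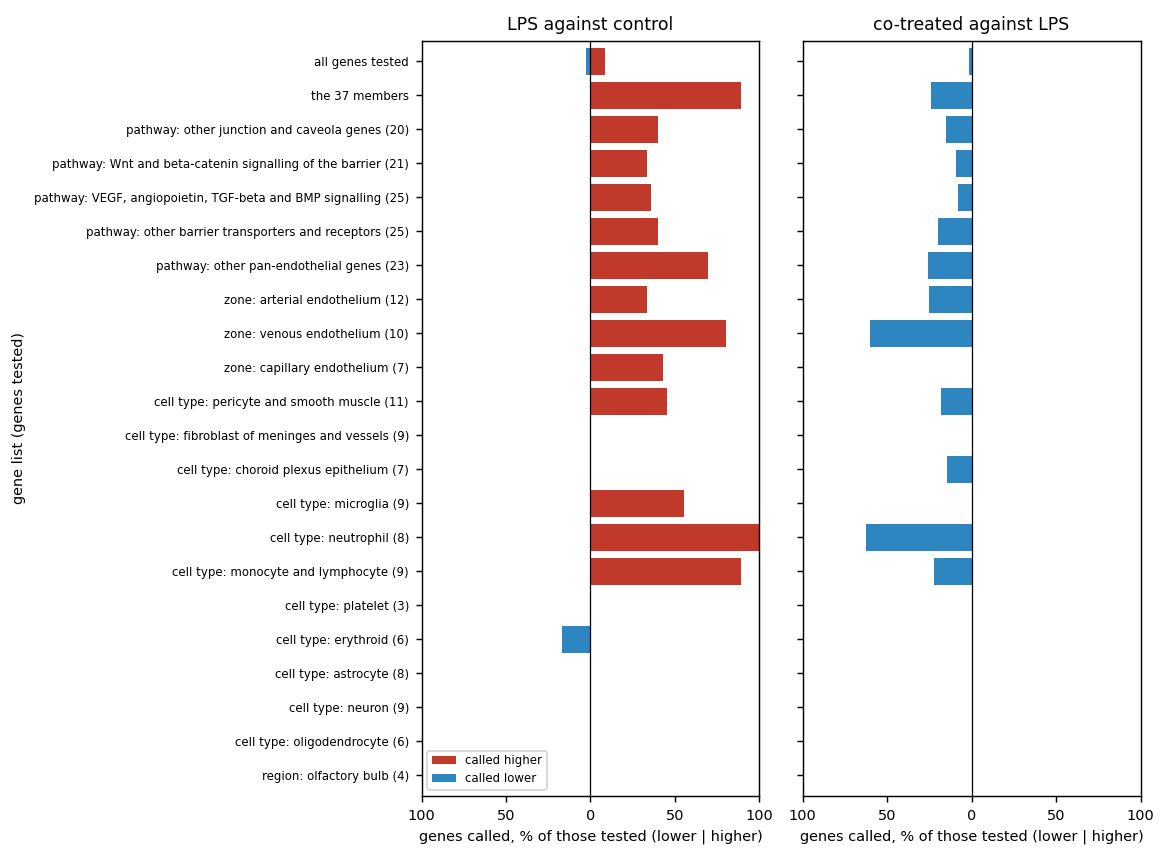
Percentage of the genes tested in each list that were called higher (red, right of 0) or lower (blue, left of 0), in LPS against control and in co-treated against LPS, with all 17757 genes and the 37 members at the top. The members stand at 89.2% higher after LPS beside 8.47% of all genes, and at 24.3% lower in co-treated libraries beside 1.68%. Members and lists were chosen with earlier results of these data known.

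In the deposited table's coordinates, whose build is not given in the sources used here, Sox18 (ENSMUSG00000046470) lies on chromosome 2 from 181311629 to 181313433, Eng (ENSMUSG00000026814) on chromosome 2 from 32536607 to 32572681 and Tie1 (ENSMUSG00000033191) on chromosome 4 from 118328388 to 118347258. Slc38a5 (ENSMUSG00000031170) lies on chromosome X from 8137372 to 8146418, Podxl (ENSMUSG00000025608) on chromosome 6 from 31496423 to 31540916 and Cldn5 (ENSMUSG00000041378) on chromosome 16 from 18595597 to 18597012. Cav1 (ENSMUSG00000007655) lies on chromosome 6 from 17306334 to 17341451 and Sox17 (ENSMUSG00000025902) on chromosome 1 from 4561154 to 4567577, and all 37 members are annotated as protein-coding. These coordinates differ from those of the GRCm38.p6 promoter windows above and cannot be set beside them. Of 52029 gene IDs shared with the GENCODE M21 annotation, 2.81% had the same start.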

How the data were processed

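The submitters deposited a table of raw read counts per gene for all samples, and per the labels' protocols the RNA was poly(A)-selected and made into stranded Illumina libraries. The submitters' processing notes name fastp, HISAT2, StringTie, RSEM and DESeq2, while the genome build and the use of strand in counting are not given in the sources used here. The deposited count table is labelled featureCounts, a program that these notes do not name. The 37 members and all gene lists were chosen with earlier results of these data known.

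Counts of the 19 libraries were filtered by group with filterByExpr, which left 17757 of 57010 genes. They were scaled by TMM and fitted with edgeR 4.0.16 (glmQLFit, glmQLFTest) in R 4.3.3, in 1 model over all 4 groups with no covariate. P-values were Benjamini-Hochberg adjusted over all genes and called below 0.05, and the SE is the log2 fold change over the root of F. The fit was tested on simulated counts. Totals of 19.08 to 24.32 M counts per library set the precision of low genes. Control replicate 3 is not analysed here.

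Values per library are given for up to 6 members with the smallest p among those called in co-treated against LPS, sedanolide against control or the interaction. They are also given for the 2 largest called changes and the smallest change of each role in LPS against control. From each list, up to 4 genes are named in LPS against control and up to 2 in co-treated against LPS, by p; the other genes of short lists of calls (such as Atp13a5, Insr and Abcc4), and cell markers in the other comparisons, were named after their values were seen. Alternatives were DESeq2 1.42.0, other scaling and filters, fewer groups, a replicate block, bulb content and leaving out each library. Offsets for length and GC content and the bulb-rich subset were added after the data were seen.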

Additional observations from a re-analysis of the deposited data

Results flagged for a closer look

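Of 148 sets of 4 or 5 libraries examined (37 members in 4 groups), 14 held a library far from the others by Dixon's criterion, which chance gives in about 1 in 20 sets. Control replicate 2 was the high library in 5 of them. It had Tek at 34.6 CPM (other controls 19.8 to 21.3), Ptprb at 90.2 CPM (49.6 to 50.6), Flt1 at 135.7 CPM (82.5 to 88.1), Erg at 10.5 CPM (5.28 to 5.70) and Sox18 at 10.1 CPM (6.98 to 7.50). Co-treated replicate 5 was low for Ptprb at 82.9 CPM (others 109.6 to 119.7) and Ly6c1 at 43.2 CPM (58.1 to 61.9), and high for Sox17 at 12.4 CPM (9.86 to 10.3) and Plvap at 6.55 CPM (5.75 to 5.96). LPS replicate 2 was high for Pecam1 at 102.6 CPM (62.3 to 69.9) and Podxl at 141.7 CPM (101.5 to 111.4). Sedanolide replicate 5 was high for Tjp1 at 136.8 CPM (118.5 to 122.7) and Slc38a5 at 6.76 CPM (4.67 to 5.23), and sedanolide replicate 1 was low for Sox17 at 7.14 CPM (9.65 to 10.4).

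The change by LPS differed between mice with and without sedanolide for 7 members, by the interaction term of the edgeR model. The log2 differences were -1.47 for Sox18 (adjusted p = 0.00571), -1.26 for Sox17 (0.0162), -0.94 for Podxl (0.0246), -1.41 for Slc38a5 (0.042), -0.85 for Robo4 (0.0454), -1.07 for Eng (0.0469) and -0.89 for Tie1 (0.0469).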

How the results depend on the processing

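No called member changed sign under any alternative, while several counts moved. Members called in LPS against control (33) numbered 19 in bulb-poor libraries. In sedanolide against control (1) they numbered 6 with DESeq2 and 0 with only the groups compared, in bulb-poor and in bulb-rich libraries. In co-treated against LPS (9) they numbered 14 with DESeq2, 4 with the bulb index and 0 in bulb-poor libraries, in co-treated against control (22) 6 in bulb-poor libraries, and in the interaction (7) 0 in bulb-poor libraries. Leaving out each library in turn gave 30 to 35, 1 to 7, 3 to 13, 12 to 30, 15 to 19 (co-treated against sedanolide) and 1 to 12 members in these comparisons.

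Over all genes, LPS against control had 1938 calls, 1114 with only the groups compared, 848 in bulb-poor and 761 in bulb-rich libraries (685 higher, 76 lower). Sedanolide against control had 943 (568 higher, 375 lower), 439 with no filter, 1892 with DESeq2, 19 with only the groups compared (7 higher, 12 lower), 1466 with the bulb index, 8 in bulb-poor (1 higher, 7 lower) and 0 in bulb-rich libraries, where 0 of 37 members were also called. Offsets for length and GC gave 271 there (130 higher, 141 lower). Co-treated against LPS had 350 (51 higher, 299 lower), 912 with DESeq2, 723 with only the groups compared, 140 with the bulb index, 35 in bulb-poor libraries (14 higher, 21 lower) and 537 with length and GC offsets. Co-treated against control had 1965 (1133 higher, 832 lower), 1244 with no filter, 1094 with the bulb index (777 higher, 317 lower) and 615 in bulb-poor libraries (475 higher, 140 lower). The interaction had 104 (38 higher, 66 lower), 447 with DESeq2, 314 with the bulb index and 20 in bulb-poor libraries (17 higher, 3 lower). Without each library in turn the ranges were 1308 to 2478, 97 to 1410, 141 to 590, 876 to 2907, 762 to 1247 (co-treated against sedanolide) and 33 to 242. Subsets hold fewer libraries, and otherwise the cause was not tested.

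Samples of different groups share only a replicate number: deviations of the 27 same-numbered pairs correlated at -0.647 to 0.317 (median -0.109), and 0 of 19 libraries correlated best with its own number. With the replicate block, members called numbered 4 in co-treated against LPS and 3 in the interaction, and all genes called 95 in sedanolide against control, 145 in co-treated against LPS, 954 in co-treated against control (686 higher, 268 lower) and 32 in the interaction. Depth limits the lowest member, Foxq1, at 64 reads in 1 library.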
